A study of Mus musculus with 32 samples.

Results

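Synaptic vesicle and SNARE genes were followed through soma and neurites of cultured mouse hippocampal neurons. They were taken by symbol from the protein-coding genes listed in the deposited neurite-enrichment tables: synaptotagmins (Syt), synapsins (Syn1 to Syn3), SNAP proteins (Snap23, Snap25, Snap29, Snap47), Snap91, vesicle-associated membrane proteins (Vamp1 to Vamp8), syntaxins (Stx), complexins (Cplx), Rab3 GTPases, Sv2a to Sv2c and Syp. The rule gave 56 of the 55573 genes of the count table, among 23566 genes listed in those tables. They comprise 16 synaptotagmins, 8 syntaxins of inner membranes, 7 syntaxins of the plasma membrane, 6 R-SNAREs (Vamp genes), 4 Rab3 genes, 4 SNAP genes, 4 genes of vesicle membrane proteins (Sv2a, Sv2b, Sv2c, Syp), 3 synapsins, 3 complexins and the clathrin adaptor Snap91. All 56 passed the filter on low counts (a mean of 10 or more) in every comparison.

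Neurons of C57BL/6 mice (WT) and of Mettl3 flox/flox mice (Mettl3 KO) were grown on a porous membrane that lets neurites, but not cell bodies, pass to the lower side. At day 7 both genotypes, controls included, received an AAV that carries Cre with dTomato under the neuronal hSyn promoter, so that Mettl3, the methyltransferase that makes N6-methyladenosine (m6A) in mRNA, is removed in neurons and not in glia. On day 15, after 16 h of silencing with TTX (1 µM) and D-AP5 (50 µM), inserts were left untreated (Ctrl) or depolarized with 55 mM KCl for 2 h, and RNA was taken from the soma side and the neurite side. RNA-seq covered 16 libraries in 8 groups of 2, each pair from separate litters whose pups were pooled, with Ctrl and KCl inserts from the same litter. Ara-C was used against glia, and the soma side can also hold neurites. The totals ranged from 33789183 to 71394235 counts per library. Each number below that compares 2 groups therefore rests on 2 libraries a group, and in bulk RNA fewer cells of a type and less RNA per cell cannot be told apart.

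A synaptic vesicle fuses when the R-SNARE VAMP2 on its membrane zips up with syntaxin 1 and SNAP25 on the plasma membrane. Synaptotagmin 1 is the calcium sensor of this step and complexins hold and then help the SNARE complex, while RAB3 proteins bring vesicles to release sites, synapsins cluster them, and SV2 and synaptophysin are integral proteins of the vesicle. Other syntaxins and VAMPs do the same work on endosomes and the Golgi apparatus. The proteins act mostly in axons, but whether the mRNA is also held in neurites differs from gene to gene, and m6A is one of the marks that these mRNAs can carry.

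DART-seq reads m6A as C-to-U editing: an editing enzyme fused to an m6A-binding domain edits the cytosine that follows the methylated adenosine. The authors deposited an editing score for an RNA (the sum, over its called sites, of C2U fractions averaged over libraries) and a mean C2U value for each site. 33 of the 56 genes had a score, which is 58.93% of them against 23.95% of the listed genes. The scored genes were also the more abundant ones, with a median mean count of 8508 against 536 for those without a score. Cplx1, the most abundant of the 56 per exon length, had none. The scored genes held 132 sites. All of their edited bases followed an A preceded by A or G, which the authors' calling required, and 98 of the sites (74.24%) matched the wider DRACH motif against 70.89% of all 18231 sites. The sites lay in coding sequence in 59 cases, in 3′UTRs in 55, in 5′UTRs in 15 and, for 3 sites of Cplx2, past the annotated end of the gene. Median editing was 3.53% per site, close to the 3.54% over all sites.

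The windows below show the most edited site of the 6 genes with the highest WT scores, and that of Vamp2 and Cplx2, both of which were higher in neurites (GRCm38 coordinates, 5′ to 3′ on the strand of the gene). In capitals are the 3 bases in which the middle A is the methylated position and the C the edited one.
Snap91, chr9:86838043-86838063, minus strand: gatggcatttGACtttgccag
Sv2b, chr7:75115666-75115686, minus strand: attaactgatAACgctctgtt
Stx8, chr11:67973231-67973251, plus strand: agcttaccttGACaatcagaa
Stx12, chr4:132855378-132855398, minus strand: agaacagactGACcacagaag
Rab3c, chr13:110055071-110055091, minus strand: aacatggaagGACtatggcga
Rab3b, chr4:108890483-108890503, plus strand: tcaaagtgaaGACagtctacc
Cplx2, chr13:54386424-54386444, plus strand: aggtagagacAACagcagtcc
Vamp2, chr11:69092370-69092390, plus strand: tgtaatgagtAACcatatggt

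The coding site of Snap91, the clathrin adaptor AP180 that sets vesicle size during retrieval, was edited to 27.06%, the highest value of the 132 sites. Editing was 20.14% at the 3′UTR site of Sv2b, 15.4% at the coding site of Stx8, 15.09% at the 3′UTR site of Stx12, 11.53% at the 3′UTR site of Rab3c and 9.293% at the coding site of Rab3b. The Cplx2 site, downstream of the annotated gene, was edited to 8.219%. The single site of Vamp2 lay in its 3′UTR, close to the annotated end of the gene, and was edited to 6.378%. These are the authors' means over WT libraries, without replicates, and the read depth behind each value is not known here beyond a minimum of unique reads that the authors' calling required.

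Per exon length, the genes covered a wide range, from 0.083 CPM (counts scaled by library size) per kb of exon for Syt15 upward. Over the 16 libraries Cplx1 was highest at 367 CPM per kb, followed by Cplx2 at 323, Rab3a at 299.6, Vamp2 at 261 and Syt11 at 228. The first 5 genes held 51.3% of the summed level and the first 10 held 75.0%. In 10 genes the level was above 100 CPM per kb, and in 8 it was below 1. The highest genes of the other roles were Snap47 (206 CPM per kb), Syn1 (147), Sv2a (110.2), Stx1a (101), Snap91 and, among syntaxins of inner membranes, Stx7. Syt1, the calcium sensor, stood at 47.8 CPM per kb and Snap25 at 118.

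The checks of the labels were as follows. Mettl3 was at 16.7 and 16.2 CPM in WT soma and at 8.94 and 10.98 in KO soma, and at 12.01 and 12.45 CPM in WT neurites and 3.91 and 6.76 in KO neurites, so that the untreated genotypes did not overlap in either fraction. Of all genes tested, 23.5% in soma and 25.8% in neurites were likewise lower in KO without overlap. Mettl3 was not called in soma (log2 -0.73, SE 0.385, adjusted p = 0.624) or neurites (-1.19, SE 0.394, adjusted p = 0.423). These counts cover the whole gene, while Cre removes only the floxed exon, so they cannot show how complete the deletion was. The paper reports near complete loss of METTL3 protein and reduced m6A in poly(A) RNA. Fos, an immediate early gene, went from 12.4 to 12.9 CPM in untreated WT soma to 2750 and 3204 CPM after KCl (log2 change 7.80, SE 0.154, adjusted p = 1.2e-09). The KCl-treated KO insert of replicate 1 stood apart, as described with the KO comparisons. The summed level of 10 neuronal markers was above that of 10 astrocyte markers in all WT libraries, and no marker of any list was at 0 in any library. The astrocyte sum ran from 1159 to 1182 CPM in WT Ctrl soma and from 2050 to 3143 in WT Ctrl neurites.

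Which of these mRNAs were richer in neurites than in soma was asked first in untreated WT neurons. Cplx2, coding for complexin 2, was nearly 3 times as high in neurites. Vamp2, the vesicle SNARE itself, was also higher, and so was Vamp8, an R-SNARE known from endosomes and from secretion in non-neuronal cells. Stx2, Syt2, Sv2b and Stx5a were lower in neurites. The others did not pass the test at 1.5-fold, among them Syt1, Snap25, Stx1a, Syn1 and Rab3a. In all, 3 of 56 genes were called higher and 4 lower, against 9.01% and 4.54% of the 23200 genes tested. The median log2 difference was -0.08 for the 56 genes and -0.10 for all genes.

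Cplx2 stood at 1194 and 1286 CPM in soma and at 3533 and 4358 CPM in neurites. The lower neurite library was thus above the higher soma library by a wide margin, and the difference was 1.58 on the log2 scale (SE 0.169, 2.98-fold, adjusted p = 0.000337). For comparison, Cplx1 stood at 622 and 671 CPM in soma and 909 and 1033 CPM in neurites (log2 0.49, SE 0.106, adjusted p = 0.0106), which is under the required fold. The low Cplx3 gave 0.59 (SE 0.259, adjusted p = 0.134). All 3 complexins had both neurite libraries above both soma libraries, which held for 21 of the 56 genes and for 32.9% of all genes tested.

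Of the R-SNAREs, Vamp2 went from 839 and 955 CPM in soma to 1391 and 1721 CPM in neurites (log2 0.70, SE 0.139, adjusted p = 0.0074). Its groups did not overlap. Vamp8 was scarce, at 2.06 and 1.90 CPM in soma and 4.51 and 3.97 in neurites (log2 1.006, SE 0.210, adjusted p = 0.00924). Astrocyte markers moved the same way, with 5 of 10 called higher in neurites and none lower, as did 5 of 9 tested markers of fibroblasts and vessels, 2 of 7 of microglia and 1 of 6 of the oligodendrocyte lineage. Their part in the Vamp8 value was not tested.

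The partners of VAMP2 on the plasma membrane differed from each other. Stx1a stood at 240 and 255 CPM in soma and 316 and 403 CPM in neurites (log2 0.44, SE 0.126, adjusted p = 0.0338, below 1.5-fold). Snap25 stood at 829 and 946 CPM in soma and 788 and 894 in neurites, which overlapped (log2 -0.17, SE 0.135, adjusted p = 0.392). Stx2, a syntaxin of many cell types, was called lower, with 10.2 and 11.2 CPM in soma and 5.60 and 5.17 in neurites (log2 -1.08, SE 0.178, adjusted p = 0.0031).

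The genes of vesicle membrane proteins all had lower values in neurites. Sv2b fell from 139 and 161 CPM in soma to 90.9 and 107 in neurites (log2 -0.70, SE 0.126, adjusted p = 0.00469). Syp, coding for synaptophysin, stood at 163 and 135 CPM in soma and 106 and 115 in neurites (log2 -0.52, SE 0.154, adjusted p = 0.0387, below 1.5-fold). Sv2a gave -0.63 (SE 0.207, adjusted p = 0.057) and Sv2c -0.47 (SE 0.225, adjusted p = 0.167). In each of the 4 genes both neurite libraries were below both soma libraries, as they were in 22 of the 56 genes and in 32.0% of the 23200 genes tested. For Syp, 16.8% of the exon length overlaps a gene on the other strand, and counting did not use strand.

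Among synaptotagmins, Syt2, a fast calcium sensor of some inhibitory and hindbrain synapses, was the only called gene of 16 and was scarce, at 7.38 and 9.07 CPM in soma and 5.33 and 3.37 in neurites (log2 -0.997, SE 0.299, adjusted p = 0.0409). Its call was lost with the replicate number as a block (log2 -0.97, adjusted p = 0.0591). Syt1 was nearly level, at 518 and 496 CPM in soma and 479 and 453 in neurites (log2 -0.21, SE 0.103, adjusted p = 0.17). The abundant Syt11, a synaptotagmin that does not bind calcium, gave -0.21 (SE 0.098, adjusted p = 0.156). Of the syntaxins of inner membranes, the Golgi SNARE Stx5a was called lower, with 84.5 and 83.5 CPM in soma and 60.5 and 51.8 in neurites (log2 -0.68, SE 0.111, adjusted p = 0.00297), and Stx7 gave -0.14 (SE 0.122, adjusted p = 0.433). Synapsins, Rab3 genes, SNAP genes and Snap91 had no called member. Syn1 gave 0.19 (SE 0.164, adjusted p = 0.44), Rab3a -0.22 (SE 0.098, adjusted p = 0.147), Snap47 -0.28 (SE 0.107, adjusted p = 0.0876) and Snap91 0.22 (SE 0.108, adjusted p = 0.185).

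**Figure D1:**
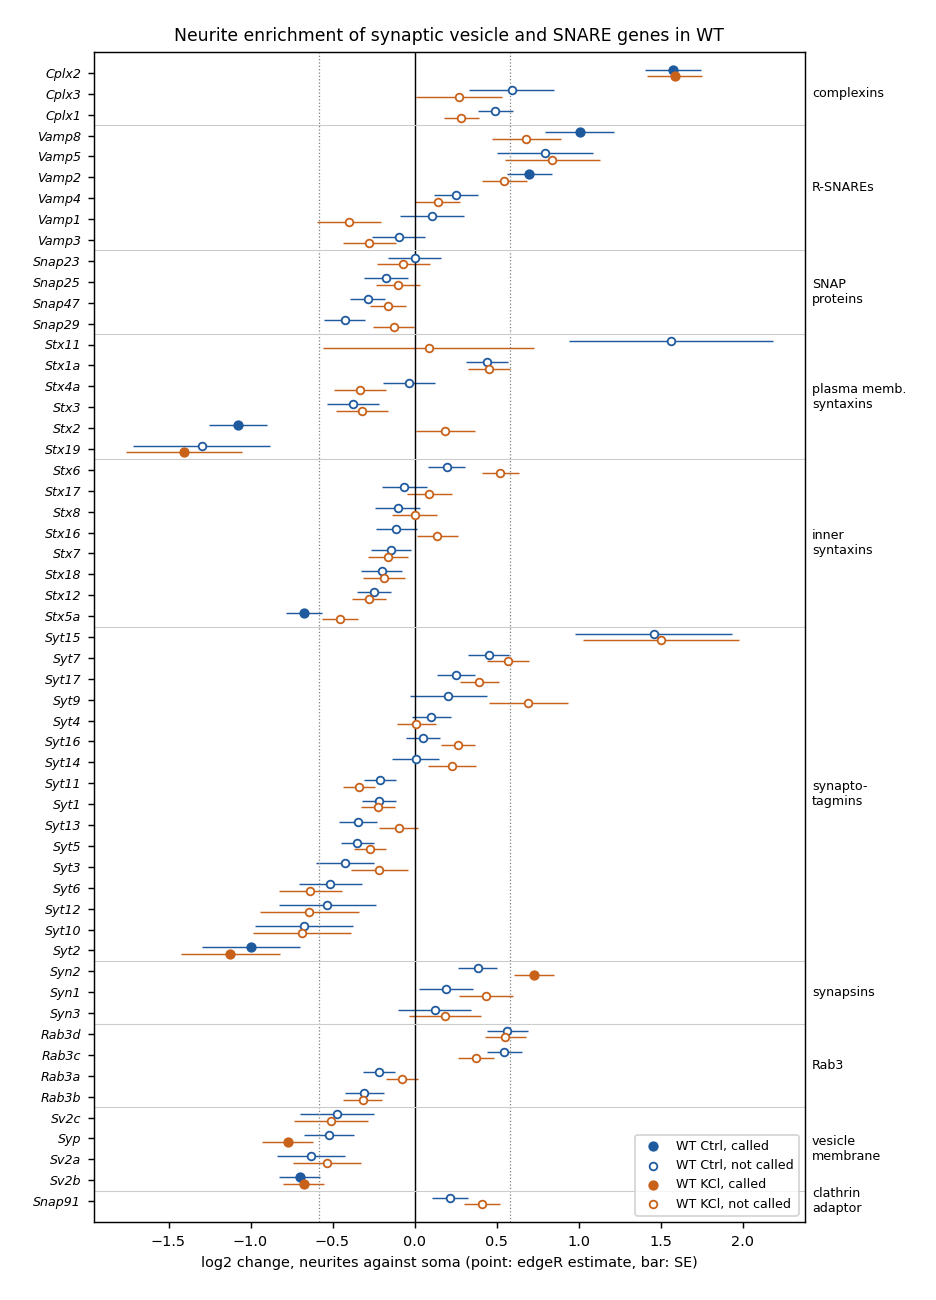
The log2 difference between neurites and soma (x axis) is plotted for 55 of the 56 genes, ordered by role, with WT Ctrl and WT KCl side by side, points for the edgeR estimate and bars for its SE, filled where the gene was called. Cplx2 lies at 1.58 untreated and 1.59 after KCl, and Sv2a, Sv2b, Sv2c and Syp all lie to the left of 0.

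These calls rest on the spread within the 8 WT libraries. With all 16 libraries in the fit, whose KO replicates differ more, none of the 7 genes was called (the adjusted p of Cplx2 was 0.631), while the estimates kept their direction. Calls also turned on single libraries: without WT Ctrl soma replicate 2 there were 3 (Cplx1, Cplx2, Vamp2), with Stx2 (log2 -0.93, adjusted p = 0.0622), Stx5a, Sv2b (-0.51, adjusted p = 0.109), Syt2 and Vamp8 lost, and without WT Ctrl neurite replicate 1 there were 12. Without soma replicate 1 the genes lost were Vamp2 (adjusted p = 0.0529), Vamp8 (0.0547), Stx5a and Syt2, and without neurite replicate 2 they were Vamp2 (0.0561), Stx5a and Syt2.

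KCl-treated WT inserts, which share no library with the untreated ones, gave the same question a second time. Cplx2 was again the most enriched of the 56, at 880 and 1218 CPM in soma and 3341 and 2905 CPM in neurites (log2 1.59, SE 0.168, adjusted p = 0.000524). Syn2, coding for a synapsin, was higher at 353 and 361 CPM in neurites against 223 and 211 in soma (log2 0.73, SE 0.122, adjusted p = 0.00424). Lower in neurites were Syp, from 253 and 183 CPM in soma to 131 and 121 in neurites (log2 -0.77, SE 0.155, adjusted p = 0.00991), Sv2b (log2 -0.68, SE 0.126, adjusted p = 0.00722), Syt2 (log2 -1.13, SE 0.302, adjusted p = 0.0342) and the scarce Stx19. In all, 2 of 56 were called higher and 4 lower, against 6.87% and 2.73% of 23028 genes.

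Vamp2 kept its direction after KCl without reaching 1.5-fold (log2 0.55, SE 0.139, adjusted p = 0.0273), and Vamp8 was at 0.68 (SE 0.211, adjusted p = 0.0585). Between untreated and KCl-treated inserts, 50 of the 56 genes had the same sign (89.3%), against 77.8% of 22140 genes tested in both, and the log2 differences correlated across the 56 genes with Pearson's r of 0.846 against 0.661 over all genes. This is a description: the points share litters, library preparation and annotation, and genes are not independent replicates. As before, the fit to all 16 libraries called none (adjusted p of Cplx2 0.931). Without WT KCl neurite replicate 1 the count was 2, with Sv2b (log2 -0.61, adjusted p = 0.089), Syp and Syt2 lost, and without WT KCl soma replicate 2 it was 11. Syp was also lost without WT KCl soma replicate 1 (log2 -0.51) or WT KCl neurite replicate 2 (adjusted p = 0.0873), and Syt2 without soma replicate 2 or neurite replicate 2.

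Other genes of the release machinery, in lists that hold none of the 56, were set beside them, with the same shares over all genes as background (9.01% higher and 4.54% lower untreated, 6.87% and 2.73% after KCl). Of 16 active zone genes, 9 were higher in untreated WT neurites and none lower, with a median log2 difference of 0.68. Rims1, coding for an organizer of release sites, led at 1.56 (SE 0.156, adjusted p = 0.000253), and Bsn, the large scaffold Bassoon, was at 0.69 (SE 0.129, adjusted p = 0.00578). Of 19 genes of SNARE assembly and priming, 3 were higher: Unc13c (log2 2.21, SE 0.272, adjusted p = 0.000681), Rph3a (1.12, SE 0.130) and Doc2b (0.74, SE 0.126). Of 26 genes of vesicle endocytosis, 3 were higher (Eps15, Epn1, Pacsin1). Of 10 other SNAREs, Vti1b, Gosr1 and Gosr2 were higher. Among 24 other vesicle proteins and transporters none was higher and Synpr, coding for synaptoporin, a relative of synaptophysin, was lower (-0.91, SE 0.094, adjusted p = 0.000294). After KCl the numbers higher were 6 of 16, 4 of 19, 3 of 26, 1 of 10 and 0 of 24, with Synpr again the only one lower.

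The effect of depolarization was examined next. In WT soma, KCl raised 2 well-expressed genes of the 56 by more than 2-fold. Stx5a, the syntaxin of transport between endoplasmic reticulum and Golgi, rose from 84.5 and 83.5 CPM to 307 and 303 CPM (log2 1.79, SE 0.113, 3.45-fold, adjusted p = 3.23e-06). Syt4, a synaptotagmin known to be induced by activity, rose from 273 and 242 CPM to 745 and 798 CPM (log2 1.51, SE 0.1198, 2.84-fold, adjusted p = 1.81e-05). Stx2 fell from 10.2 and 11.2 to 4.50 and 5.48 CPM (log2 -1.17, SE 0.177, adjusted p = 0.00162). Stx19 was also called higher but was below 2 CPM in every library (log2 1.60, SE 0.345, adjusted p = 0.0117) and, like Stx11 below, is named after its values were seen. Its call was lost without any of WT soma Ctrl replicate 1, Ctrl replicate 2 or KCl replicate 1 (adjusted p between 0.0658 and 0.127). The 3 rises and 1 fall among 56 stand against 3.74% and 2.96% of 24060 genes tested.

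In WT neurites the same response was seen for Stx5a, which rose from 60.5 and 51.8 CPM to 214 and 227 CPM (log2 2.01, SE 0.113, 4.03-fold, adjusted p = 2.81e-06), and for Syt4, which rose from 283 and 307 CPM to 707 and 834 CPM (log2 1.42, SE 0.121, adjusted p = 5.38e-05). No other gene of the 56 was called, so that 2 were higher and 0 lower, against 3.33% and 1.70% of 22059 genes, and Stx19 passed 2-fold at an unadjusted p only. DESeq2 also called 2. For Stx5a the call held in both fractions under each of the 12 alternatives, with log2 changes of 1.78 to 1.87 in soma and 1.90 to 2.13 in neurites. Syt4 lost its call only with all 16 libraries in the fit (adjusted p 0.396 in soma and 0.596 in neurites), as did Stx2 in soma (0.646). Of the exon length of Syt4, 14.5% overlaps a gene on the other strand, and for Stx5a 1.88% overlaps a microRNA gene.

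Compared with these, the core fusion genes moved little within 2 h. Over Syt1, Snap25, Vamp2, Stx1a, Cplx1, Cplx2, Syn1, Syp, Sv2a, Rab3a and Snap91 the log2 change lay between -0.31 (Cplx2, SE 0.163, adjusted p = 0.26) and 0.48 (Syp, SE 0.154, adjusted p = 0.0698) in soma, and between -0.30 (Cplx2, SE 0.167) and 0.32 (Snap25, SE 0.135, adjusted p = 0.196) in neurites, and none was called. Vamp2 gave 0.07 (SE 0.138) in soma and -0.07 (SE 0.139) in neurites. In soma 5 of the 56 genes passed the adjusted p but not the fold. How many of all genes did so was not counted, so these are listed for their values only. Higher were Vamp1, an R-SNARE related to Vamp2 (log2 0.80, SE 0.195, adjusted p = 0.0209), Syt11 (0.545, adjusted p = 0.00458) and Rab3c (0.42, adjusted p = 0.0293), and lower were Stx6, a SNARE of the trans-Golgi network and endosomes (-0.49, adjusted p = 0.0153), and Syn2 (-0.486, adjusted p = 0.0238). In none of the other 5 lists of the release machinery was a gene called with KCl in WT soma or neurites.

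**Figure D2:**
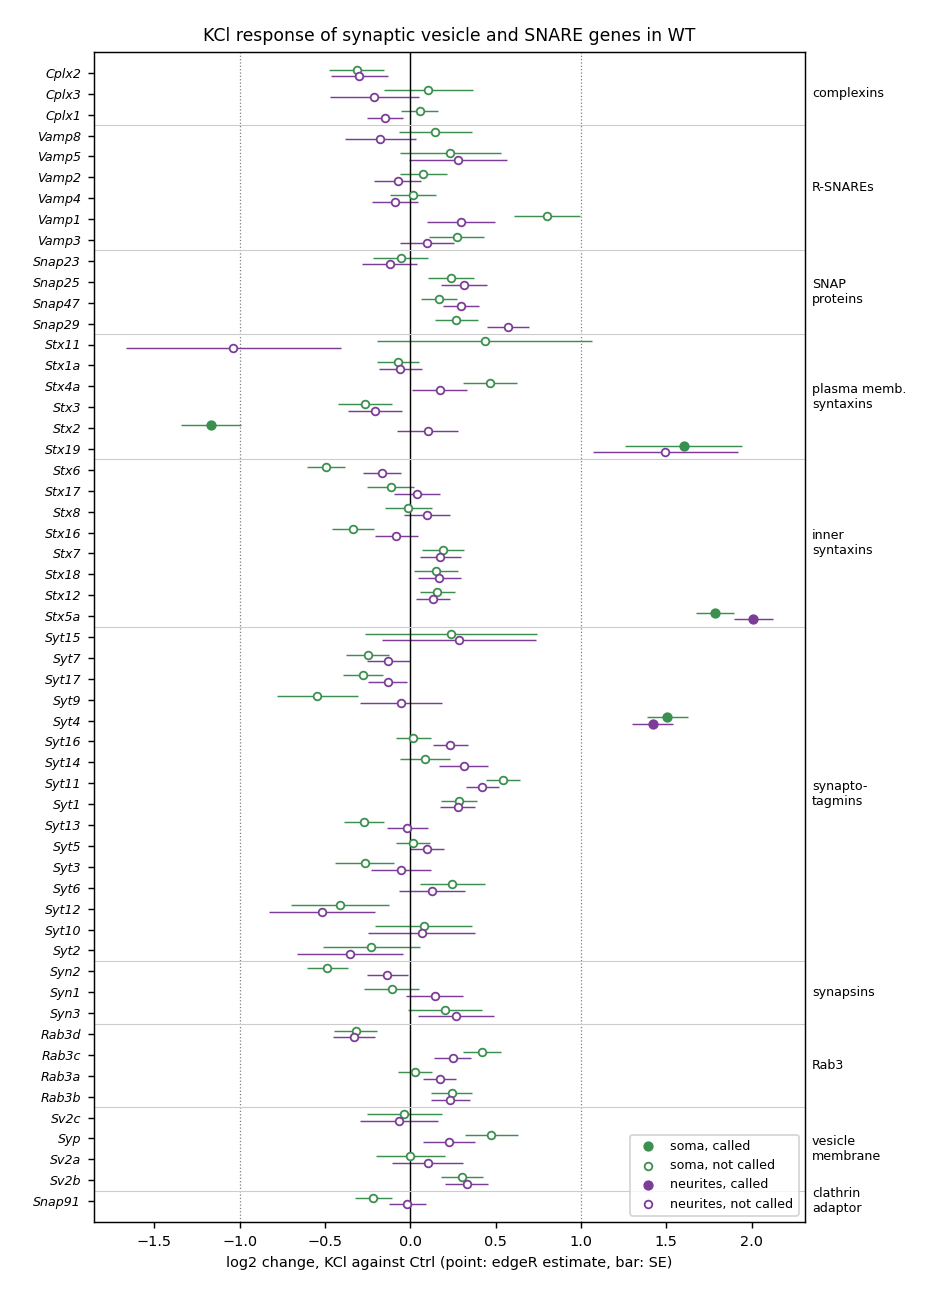
The log2 change from Ctrl to KCl (x axis) in WT soma and WT neurites is shown for 55 of the 56 genes by role, with bars for the SE, filled points for called genes and dotted lines at 2-fold. Stx5a at 1.79 and 2.01 and Syt4 at 1.51 and 1.42 stand to the right, and Stx2 at -1.17 in soma to the left.

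Whether KCl changed the balance between neurites and soma was tested as the difference of the 2 log2 ratios, called where 1.5-fold and an unadjusted edgeR p of 0.05 were both passed. Of 56 genes 1 was higher, Stx2 (difference 1.27, SE 0.265, unadjusted p = 0.00102), and 0 were lower, against 2.00% and 1.35% of 23200 genes. Its adjusted p was 0.999 and no gene of any kind passed at an adjusted p. By level, untreated soma was the group that stood apart: it was at 10.2 and 11.2 CPM, while the untreated neurites (5.60 and 5.17), the KCl-treated soma (4.50 and 5.48) and the KCl-treated neurites (5.38 and 5.89) all lay lower and overlapped. The 3 comparisons that called Stx2 share the libraries of untreated soma, so they are not independent of each other. Cplx2 gave 0.03 (SE 0.250), and Stx5a, which rose on both sides, 0.23 (SE 0.178). Leaving out a whole WT insert gave 2 genes (WT Ctrl replicate 1 or WT KCl replicate 1) or 3 (WT KCl replicate 2).

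**Figure D3:**
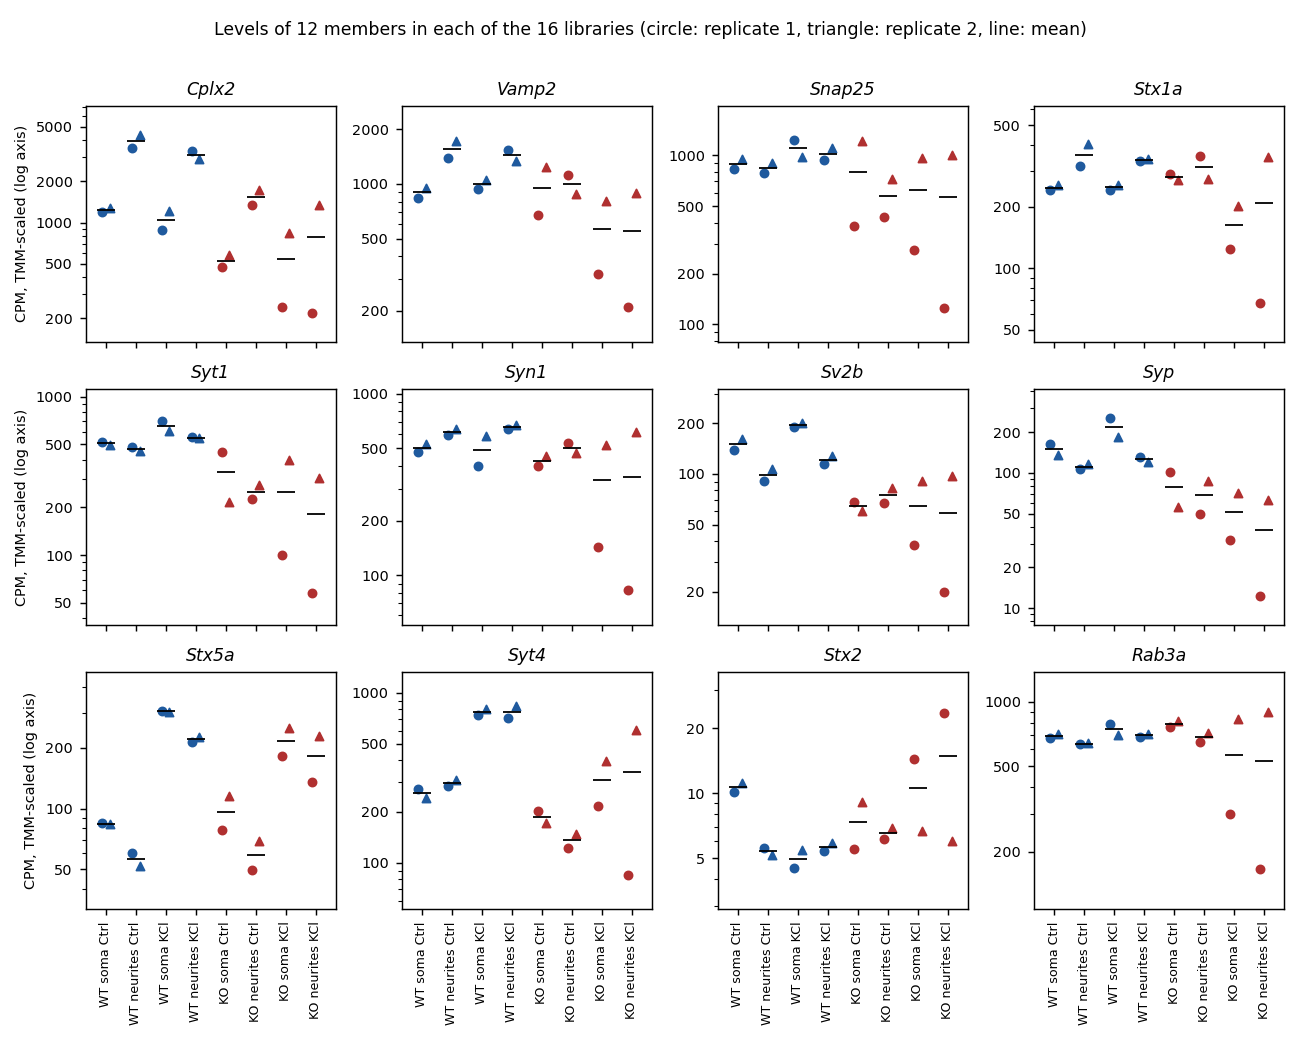
CPM (y axis, log scale) in each of the 16 libraries is drawn for 12 genes, by genotype, fraction and treatment, with circles for replicate 1, triangles for replicate 2 and lines for the mean. Stx5a and Syt4 rise with KCl in both WT fractions, Cplx2 is higher in neurites, and in the KCl-treated KO pairs 1 library lies far below the other for most genes.

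In Mettl3 KO neurons, replicates differed far more. The typical coefficient of variation between replicates (edgeR's common value) was 0.493 in the 8 KO libraries against 0.1497 in the 8 WT libraries. Over all genes the untreated KO soma pair (SD of the log2 ratio between replicates 1.096) differed as much as the treated one (1.059), while the KO neurite pairs were at 0.552 untreated and 1.463 after KCl. For the 56 genes the treated pairs lay furthest apart, with a median absolute log2 ratio of 1.16 in soma and 2.08 in neurites against 0.484 and 0.287 untreated. In the KCl-treated KO insert of replicate 1, 42 of the 56 genes in soma and 41 in neurites were lower than in replicate 2, with 26 and 31 of them at least 2-fold lower, and median log2 differences of -0.80 and -1.72 against 0.05 and 0.04 for all genes. Cplx2, for example, was at 241 and 843 CPM in the KO KCl soma libraries of replicates 1 and 2, and at 220 and 1352 CPM in neurites. Snap23, Stx2, Vamp3, Vamp5 and Vamp8, SNAREs used in many cell types, went the other way in both fractions, at least 2-fold higher in replicate 1 (named after their values were seen). Vamp3 was at 54.9 and 12.1 CPM in soma. Beside this, the summed CPM of 7 oligodendrocyte lineage markers was 3153 in soma and 6810 in neurites of replicate 1 against 71.6 and 77.2 in replicate 2, and the neuronal sum was 1856 and 1073 against 4600 and 4954. In untreated KO libraries the oligodendrocyte sum lay between 52.4 and 108.

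Neurite enrichment in untreated KO was therefore measured with less precision. No gene of the 56 was called by edgeR, and none of the 22557 tested (0.00% higher and 0.00% lower). At an unadjusted p of 0.05 with 1.5-fold 2 of the 56 passed, against 1239 of the 22557 genes, and DESeq2 called 0 of the 56. Cplx2 was at 474 and 583 CPM in soma and at 1351 and 1724 in neurites, so its groups again did not overlap (log2 1.49, SE 0.870, adjusted p = 0.841). In KO, 9 of 56 genes had both neurite libraries above both soma libraries and 15 had both below, against 22.7% and 22.6% of all genes tested. Those above included Cplx2, Rab3c, Rab3d, Stx8, Syn1, Syt9, Vamp5 and Vamp8. Vamp2 was not among them, at 672 and 1240 CPM in soma and 1120 and 880 in neurites (log2 0.00, SE 0.747). The sign of the difference was that of untreated WT in 43 of 56 genes (76.8%), near the 74.8% over 21975 genes.

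The KCl response in KO soma gave no call among the 56 or among 23679 genes (0.00% higher and 0.00% lower), and DESeq2 called 0 of the 56. Only Stx5a passed 2-fold with an unadjusted p under 0.05, at 78.1 and 115 CPM untreated and 182 and 251 CPM after KCl (log2 1.10, SE 0.451, unadjusted p = 0.0404, adjusted p = 0.751). Over all genes 1514 of 23679 passed that rule. Syt4 was at 202 and 172 CPM untreated and 217 and 396 after KCl (log2 0.66, SE 0.782, adjusted p = 0.82). Both treated libraries were above both untreated ones in 7 of 56 genes, Stx5a and Syt4 among them, and below in 6, against 20.5% and 16.6% of all genes tested. Fos was at 1357 and 4283 CPM in the treated KO soma libraries and at 37.9 and 58.2 CPM in the untreated ones. Untreated WT soma was at 12.9 and 12.4 CPM. Between the untreated genotypes Fos was not called in soma (log2 1.92, SE 0.614, adjusted p = 0.348). Without the KCl-treated KO insert of replicate 1 the count was again 0. Whether the response of either gene differs between WT and KO was not tested.

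Levels in KO and WT were compared without KCl, in a fit to all 16 libraries. In soma no gene of the 56 was called, against 0.0632% higher and 0.122% lower of 23750 genes. At an unadjusted p of 0.05 with 1.5-fold 3 passed (Stx11, Stx19 and Sv2b), against 2036 of the 23750 genes, and DESeq2 called 0 of the 56. In neurites none was called either, against 0.0642% and 0.124% of 21814 genes. There 0 of the 56 passed at an unadjusted p, against 1529 of all genes tested, and DESeq2 called 0 of the 56. The largest gap of an abundant gene was that of Cplx2, which was at 1194 and 1286 CPM in WT soma and 474 and 583 in KO soma (log2 -1.23, SE 0.6802, adjusted p = 0.64), and at 3533 and 4358 CPM in WT neurites and 1351 and 1724 in KO neurites (log2 -1.36, SE 0.684, adjusted p = 0.728). In both fractions each untreated KO library was below each untreated WT library. Without KO soma Ctrl replicate 1, 1 gene was called in soma.

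Leaving out both libraries of the KCl-treated KO insert of replicate 1, a fit added after the data were seen, changed these counts. In soma 3 genes were then called, all lower, against 1.25% of 23750 genes lower and 0.518% higher, with Cplx2 at -1.27 (adjusted p = 0.0306), Rab3b and Sv2b. In neurites 2 were called, both lower, against 0.885% of 21814 genes lower and 0.353% higher: Cplx2 at -1.33 (adjusted p = 0.0315) and Syt4. Sv2b was at 139 and 161 CPM in WT soma and 68.3 and 60.3 in KO soma (log2 -1.23, SE 0.553, adjusted p = 0.547 with all libraries). Rab3b, a Rab3 GTPase, was at 87.9 and 85.7 CPM in WT soma and 44.9 and 31.0 in KO soma (log2 -1.19, SE 0.611, adjusted p = 0.608 with all libraries). Syt4 was at 283 and 307 CPM in WT neurites and 122.6 and 148.2 in KO neurites (log2 -1.12, SE 0.612, adjusted p = 0.78 with all libraries).

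Without regard to size, 11 of 56 genes in KO soma had both libraries above both WT libraries and 14 had both below, against 25.0% and 23.5% of all genes tested. In neurites 11 were above and 23 below, against 23.5% and 25.8%. The 23 include Cplx2, Vamp2, Snap25, Syn1, Syp, Sv2b and Syt1, and the 11 above are Rab3a, Snap29, Stx2, Stx4a, Stx7, Stx8, Stx12, Stx18, Vamp3, Vamp5 and Vamp8. The neuronal marker sum was lower in the same KO Ctrl neurites, at 2929 to 3136 CPM against 4244 to 5001 in WT. Within that sum Map2, an mRNA whose neurite localization the paper ties to m6A, gave a log2 difference of -1.48 (SE 0.3575, adjusted p = 0.192). Tubb3 (0.26, SE 0.671) and Nefm (0.35, SE 0.7155) went the other way, and no marker of the sum was called. Markers of other cells did not move together: the sums overlapped for astrocytes (2931 to 6745 against 2050 to 3143), microglia (20.5 to 52.6 against 22.3 to 29.7) and the oligodendrocyte lineage (63.3 to 108 against 97.1 to 113), and that of fibroblasts and vessels was lower without overlap (22.4 to 30.0 against 34.1 to 85.3). In soma the neuronal sums overlapped (2710 to 3265 in KO and 2862 to 2921 in WT). The astrocyte sum in soma was higher in KO without overlap (1943 to 2541 against 1159 to 1182 in WT). The part of cell makeup in the differences was not tested. Genotype also goes with mouse line and litter, which cannot be told apart from the loss of Mettl3.

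**Figure D4:**
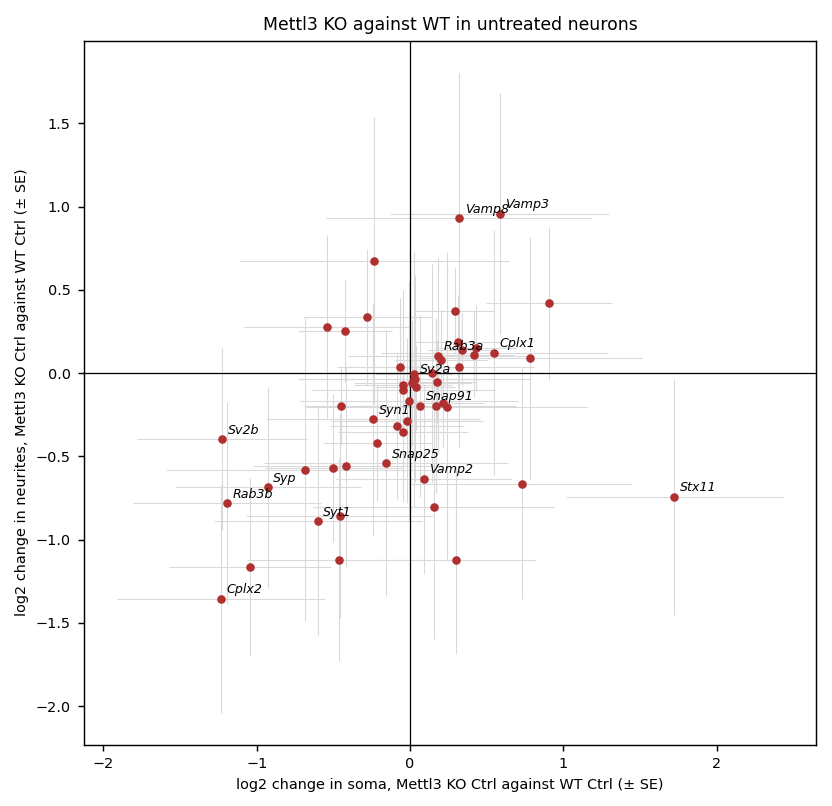
Each point is 1 of 55 genes, with its log2 difference between untreated Mettl3 KO and WT in soma (x axis) and in neurites (y axis) and bars for the SE. The bars are wide, no gene was called, and Cplx2 lies at -1.23 and -1.36.

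The change of neurite enrichment in KO, called by the same rule, was found in 2 of 56 genes, 1 higher and 1 lower, against 2.91% and 1.28% of 22942 genes. None passed at an adjusted p (lowest of the 56, 0.934). Sv2b was the higher one (difference 0.82, SE 0.359, unadjusted p = 0.0495): the fall from soma to neurites in WT, 139 and 161 to 90.9 and 107 CPM, stood beside overlapping KO values, at 68.3 and 60.3 CPM in soma and 67.4 and 82.2 in neurites. Stx11 was the lower one (difference -2.22, SE 0.867, unadjusted p = 0.0313), at no more than 1.38 CPM in any untreated library. Cplx2 gave -0.13 (SE 0.360) and Vamp2 -0.67 (SE 0.440). Without WT Ctrl replicate 2 none of the 56 was called, without WT Ctrl replicate 1 the count was 1, without KO Ctrl replicate 2 it was 4 and without KO Ctrl replicate 1 it was 12, of which 6 were higher and 6 lower, against 13.5% and 7.99% of 22980 genes. Each of these fits left a group without a replicate insert, so the spread within that group was not measured. Without KO Ctrl replicate 1 Vamp2 gave -1.28, against -0.67 with both inserts. Without the KCl-treated KO insert of replicate 1 the count was 3 (Stx2, Sv2b and Syt10; 2 higher and 1 lower, against 3.09% and 1.11% of all genes), with Stx11 lost.

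DART-seq added m6A in the same fractions, as the authors' means, in which each fraction pools untreated and KCl-treated inserts. Among the 33 scored genes WT scores ran from 0.016 for Stx4a to 0.604 for Stx8, a SNARE of endosomes that ranked 73 among 5643 RNAs. Sv2b (0.484), Snap91 (0.4744), Stx12, a SNARE of recycling endosomes (0.376), Rab3b (0.317) and Rab3c (0.311) followed. Stx8 reached its score with 9 sites, 8 of them in coding sequence, Snap91 with 4 and Stx12 with 3. Cplx2 held the most sites, 10, but scored 0.167. Vamp2, with its single site, scored 0.0663, Snap25 0.0768, Syp 0.0382 and Rab3a 0.0241, so that most of the core fusion genes lay far below the top, with Syt1 at 0.255, Syn1 at 0.162 and Stx1a at 0.10005.

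By role, the 5 scored syntaxins of inner membranes held 26 sites, the 9 synaptotagmins 29, the 3 vesicle membrane genes 18, the 4 Rab3 genes and the 2 scored synapsins 13 each, and the 3 plasma membrane syntaxins 11. Both SNAP genes with a score held 3 sites in all and the 3 R-SNAREs 5. Calling needed a minimum of reads at a position, so a gene without a score is not shown to lack m6A.

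The score was higher in WT neurites than in WT soma for 28 of the 33 genes (84.85%), against 68.81% of 5643 scored RNAs, and the median ratio of neurites to soma was 1.55 against 1.30. Vamp2 had the largest ratio of the 33, 0.0887 in neurites against 0.0208 in soma, and Stx1a was at 0.1501 against 0.0496. Syn1 (0.216 against 0.112) and Rab3c (0.367 against 0.244) were also higher in neurites, while Syt1 (0.258 against 0.252), Snap91 (0.483 against 0.467) and Stx8 (0.622 against 0.591) were close to level. Higher in soma were Sv2b (0.565 against 0.325 in neurites), Syt16, Vamp3, Snap47 and Syt11. With means alone, no difference between fractions could be tested here. The paper did test RNAs for a difference in editing between soma and neurites, and its results for these genes were not used.

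In KO the score was below WT in all 33 genes, and in 5634 of 5643 RNAs, which the rule for calling sites largely sets, since a site had to be less edited in KO. The KO score was 34.8% of the WT score in the median gene against 30.8% over all RNAs. It was 0 for Vamp8 and Stx4a and otherwise ran from 12.99% of WT (Syt17) to 50.1% (Snap47). The deposited site values summed to more than 10% above or below the score in 8 of the 33 genes and in 1415 of the 5643 RNAs, for a reason that the sources used here do not state. Site percentages and scores are therefore each given as their own table has them.

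**Figure D5:**
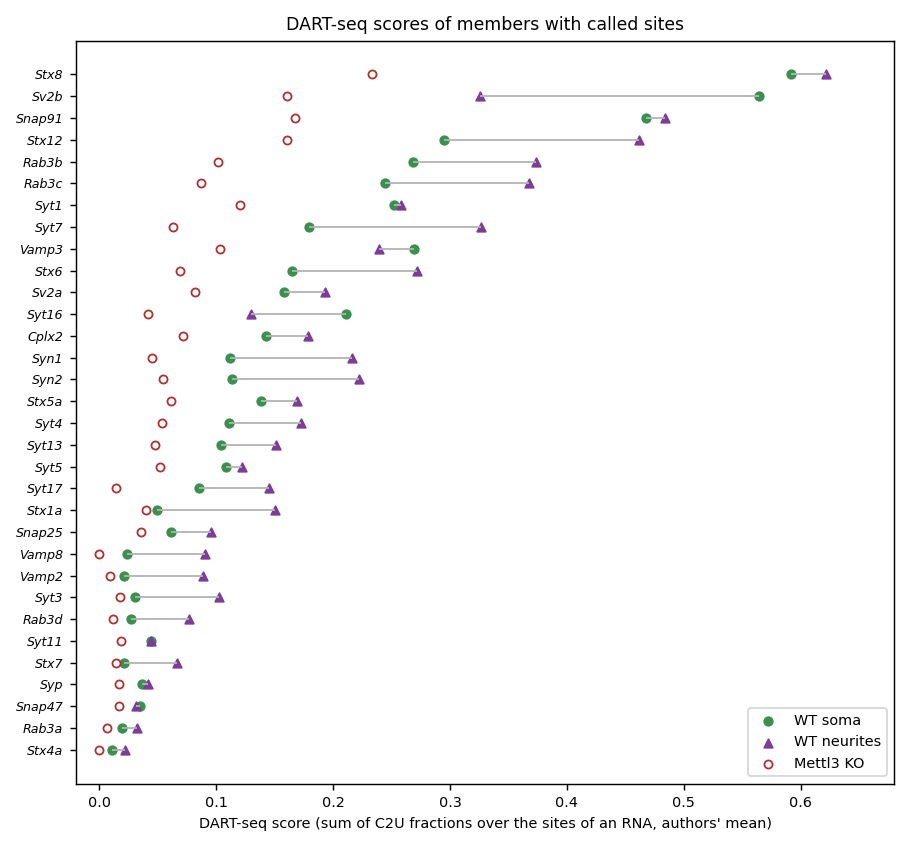
DART-seq scores (x axis, sum of C2U fractions over the sites of an RNA, authors' means) are given for 32 of the 33 scored genes in WT soma, WT neurites and Mettl3 KO. Neurite values lie to the right of soma values in 27 of those drawn, Sv2b shows the widest gap the other way (0.565 in soma and 0.325 in neurites), and each KO value lies left of both.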

How the data were processed

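The authors deposited whole-number counts of read pairs per gene, made with STAR 2.7.7a (mm10) and featureCounts 2.0.1, without strand and without normalization. Their DART-seq score per RNA is a sum of C2U fractions called with Bullseye, and each deposited site carries the mean C2U fraction of the WT libraries. Fold changes and p-values in the authors' tables were not used.

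Counts were fitted in edgeR 4.0.16 (R 4.3.3, TMM scaling; two-sided quasi-likelihood F-test, adjusted after Benjamini and Hochberg over all genes tested): contrasts within WT on the 8 WT libraries, contrasts within KO on the 8 KO libraries, and contrasts between genotypes on all 16. Changes of neurite enrichment had 1 term per insert. Genes with a mean count under 10 and 37 mitochondrially encoded genes were not tested. The thresholds for a call were 0.05 for the adjusted p together with 1.5-fold (2-fold for KCl), while changes of enrichment used 0.05 for the unadjusted p together with 1.5-fold. CPM values were TMM-scaled over the 16 libraries, so folds of the fits can differ slightly from ratios of CPM. P-values of comparisons between groups measure the spread between libraries of a group, which came from separate litters. Ctrl and KCl inserts and both fractions shared litters, but these fits took their libraries as independent. P-values of changes of enrichment measure the spread left after 1 term per insert. Counting error adds to these spreads in scarce genes (Stx11 had 13 to 76 counts per library, Stx19 9 to 102 and Syt15 5 to 52).

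The 56 genes, the lists and the split by genotype were chosen with earlier results of these data known. Named were 12 textbook genes, the highest gene per exon length in each role, the 3 largest called rises and falls per comparison (mean count 100 or more), and the 6 highest WT DART-seq scores, beside genes said to be named after their values were seen. Other lists were SNARE assembly and priming, active zone, endocytosis, other vesicle proteins and other SNAREs, with markers of neurons, astrocytes, microglia, oligodendrocyte lineage, and fibroblasts and vessels. Alternatives were DESeq2 1.42.0, RLE scaling, other count filters, other sets of libraries, the replicate block, and each replicate left out. The model was also run on counts simulated from its own fitted spread, with planted folds and independent libraries. Such a run cannot show how the model handles shared litters or an insert that stands apart. Sequence and gene parts came from GRCm38. Values of some genes are not reported here, though counts include them. Figures were drawn with matplotlib 3.10.9.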

Additional observations from a re-analysis of the deposited data

Results flagged for a closer look

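Stx2 differed between KCl-treated and untreated WT inserts in its neurite enrichment (difference of log2 ratios 1.27, unadjusted p = 0.00102, adjusted p = 0.999). Its value was 1.15 to 1.41 over 12 alternatives.

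Sv2b and Stx11 passed the unadjusted threshold for a difference between Mettl3 KO and WT in neurite enrichment without KCl, with 0.82 and -2.22 on the log2 scale (unadjusted p = 0.0495 and 0.0313, adjusted p = 0.934 for both). Stx11 had few counts, and the value ranged from -3.45 to -0.98 over 11 alternatives, and that of Sv2b from 0.65 to 1.05 over 12. The call of Stx11 was lost in 6 of the 11 and that of Sv2b in 7 of the 12, among them DESeq2, the fit without the replicate block and the fits without either WT Ctrl insert.

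Outside the 56 genes, the summed level of oligodendrocyte lineage markers was 6810 CPM in the neurite library of KCl-treated Mettl3 KO replicate 1, against 77.2 CPM in replicate 2 and 68.0 to 77.6 CPM in WT KCl neurites. The highest astrocyte sum, 19360 CPM, was in the same group of libraries.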

How the results depend on the processing

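Of the comparisons' counts of called genes, 90 alternative values stayed within 1.5 times the main count and 28 did not, and no named gene's change reversed. The 7 genes of WT Ctrl neurite enrichment became 11 with no filter on low counts, 0 with all 16 libraries and 3 to 12 with 1 library left out. The 6 of WT KCl became 0 with all 16 libraries and 2 to 11 with 1 left out. The 4 of the KCl response in WT soma and the 2 in neurites became 1 each with all 16 libraries. The change of enrichment with KCl in WT (1 gene) gave 0 at an adjusted p and 1 to 3 with 1 insert left out. KO against WT (0 in both fractions) gave 3 in soma and 2 in neurites without the KCl-treated KO insert of replicate 1, chosen after seeing the data, 0 to 1 in soma with 1 library left out, and in neurites 1 with no filter and 2 with the 4 libraries alone. The change of enrichment in KO (2 genes) gave 1 with DESeq2, 5 with no filter, 0 at a mean count of at least 100, 1 with the 8 untreated libraries, 0 at an adjusted p, and 0 to 12 with 1 insert left out. The coefficient of variation between replicates was 0.493 in KO and 0.1497 in WT libraries, and the part of depth in these counts was not tested. In a fit with RLE scaling the counts stayed within 1.5 times.

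Replicate numbers are shared by soma and neurites, and the labels do not say that a number marks a pair beyond the litter. Deviations of same-numbered soma and neurite libraries correlated at -0.133 (WT Ctrl), 0.033 (WT KCl), 0.075 (KO Ctrl) and 0.897 (KO KCl) over 15170 genes. With the replicate block the counts were 6 for WT Ctrl (Syt2 lost, adjusted p = 0.0591), 7 for WT KCl, 4 and 2 for the KCl response in soma and neurites, and 0 for the comparisons in or with KO. No replicate block in the change of enrichment gave 1 gene in WT and 1 in KO. With WT Ctrl numbers crossed, also chosen after seeing the data, the counts were 9 for WT Ctrl enrichment and 1 for the change with KCl.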
